A study of Caenorhabditis elegans with 7 samples.

Results

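Neuropeptides are cut out of longer precursors inside dense core vesicles and released when these vesicles fuse with the plasma membrane. The 9 genes described here act along that route in C. elegans: egl-3, egl-21, kpc-1, sbt-1, pghm-1 and pgal-1 in the maturation of peptides, and hid-1, ida-1 and unc-31 in the making, membrane and release of the vesicles. They were taken as every probe set of the value table annotated to 1 of these symbols alone, which gave 15 probe sets of 22548 on the array, or 9 genes of 17118, and all 9 were measured. The expression of these genes in embryonic A-class motor neurons was compared with that in all viable cells of embryonic cultures.

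The A-class cells came from animals that carry the unc-4::GFP transgene, in which the unc-4 promoter marks the DA and SAB motor neurons and the pharyngeal neuron I5. Their embryos were dissociated and the cells were cultured for 24 hours, and GFP-positive cells were then isolated by fluorescence-activated cell sorting (FACS) to about 90% purity (A-class, 3 arrays). The reference was the whole population of viable cells, gated as not stained by propidium iodide, from cultures of the wild-type strain N2 treated in the same way (4 arrays). RNA from each sample (100 ng) was amplified in 2 rounds, labeled with biotin and hybridized to an Affymetrix C. elegans GeneChip. The arrays are labeled as biological replicates, but the labels do not say whether each came from its own culture, so the p-values measure the spread between these arrays.

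Peptidergic neurons of many classes share this machinery. In general, a prohormone convertase cuts the precursor after pairs of basic residues, a carboxypeptidase trims these residues from the new end, and a pair of enzymes that act in sequence turns a terminal glycine into an amide. The dense core vesicles bud from the trans-Golgi, are carried into the axon and fuse after a priming step that synaptic vesicles share only in part. In the reference cultures these transcripts can come from other neurons and from non-neuronal cells, not from A-class cells alone.

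All values are intensities after RMA normalization, on a linear scale, and the difference is the mean log2 intensity of A-class minus that of the reference, tested with limma. To be called, a gene needed both an adjusted p below 0.01 and a change of 1.7-fold or more. The targeted marker of the sort, unc-4, had intensities of 1289, 1155 and 1386 on the A-class arrays, against 94.5, 92.7, 111 and 90.1 on the reference arrays (log2 difference 3.72, adjusted p = 2.13e-05 from limma). The coefficient of determination between arrays was 0.893 to 0.947 within A-class, 0.938 to 0.969 within the reference and 0.772 to 0.876 between the groups. All A-class chips came from 1 lot and all reference chips from another, and no hybridization day was shared, so that lot, day and cell type cannot be told apart. Only the fluidics module was shared in part: module 1 ran A-class replicates 2 and 3 and reference replicates 1 and 4.

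Of the 9 genes, 1 (unc-31) was called higher in the A-class, 0 were called lower and 8 did not pass the test. Over all 17118 genes, 2.21% were called higher and 3.31% lower. At an unadjusted p under 0.05 from limma, 2 of the 9 genes were higher and 0 lower, beside 18.1% and 15.9% of all genes. SAM, a test that permutes the array labels, called 1 higher and 0 lower, beside 530 and 832 of all 17118 genes. Of all 15 probe sets, 2 were higher and 2 lower at an unadjusted p under 0.05 from limma. The lower ones were 194246_x_at of kpc-1 and 188269_s_at of hid-1, and the shares given here are over genes, not probe sets. The difference was positive for 6 genes and negative for 3, with a median of 0.18 on the log2 scale beside 0.052 for all genes. The sizes of the differences, regardless of sign, had a median of 0.41 for the 9 genes and 0.26 for all genes. For unc-31 and sbt-1 every A-class array lay above every reference array, which was the case for 17.1% of all genes.

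**Figure D1:**
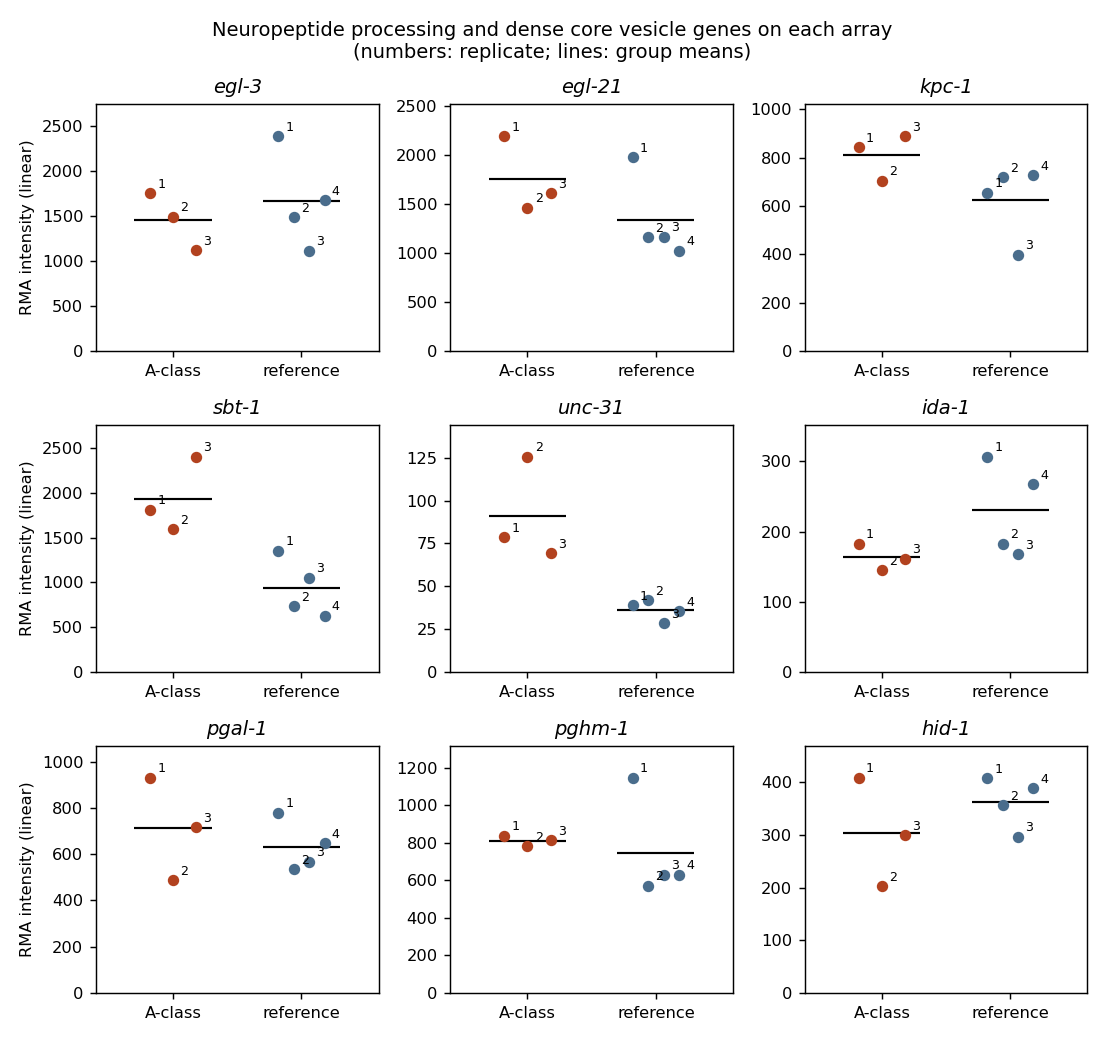
Linear RMA intensity of the 9 genes on each A-class (left, n = 3) and reference (right, n = 4) array, with the probe set used for each gene; points are arrays, numbered by replicate, and lines are group means. The A-class points lie above all reference points for sbt-1 and unc-31, and the groups overlap for the other 7 genes.

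Among the genes of vesicle release, unc-31 encodes CAPS, a protein that acts at the release of dense core vesicles. Its intensities were 78.6, 126 and 69.4 on A-class replicates 1, 2 and 3, against 38.9, 41.9, 28.5 and 35.6 on reference replicates 1, 2, 3 and 4. The lowest A-class array was above the highest reference array, and A-class replicate 2 was the highest of all. The mean was 91.2 ± 30.1 in A-class cells (SD, n = 3) and 36.2 ± 5.77 on the reference arrays (SD, n = 4). From the mean log2 intensities the transcript was 2.46-fold higher in A-class cells (95% interval 1.72 to 3.51, log2 difference 1.30, standard error 0.22, adjusted p = 0.00706 from limma). The A-class intensities lie above the median intensity of their own array, narrowly so on replicate 3, and the reference intensities below it (array medians 66.9 to 70.1).

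The difference of unc-31 was positive in each fit that was made, but its call was not kept in all of them. Without any 1 of the 7 arrays the log2 difference was 1.04 to 1.47 and the adjusted p from limma 0.0113 to 0.0219, so that the call ended in each case. With the intensities taken as log2 of the value plus 50, which damps dim probe sets, the difference was 0.69 (adjusted p = 0.0221 from limma). When the module was taken as a block it was 1.19 (adjusted p = 0.0417), within module 1 it was 1.33 (adjusted p = 0.147, on 4 arrays, where 0 of all genes passed) and between the 2 arrays of module 2 it was 0.91. SAM called the gene (q = 0.00528).

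**Figure D2:**
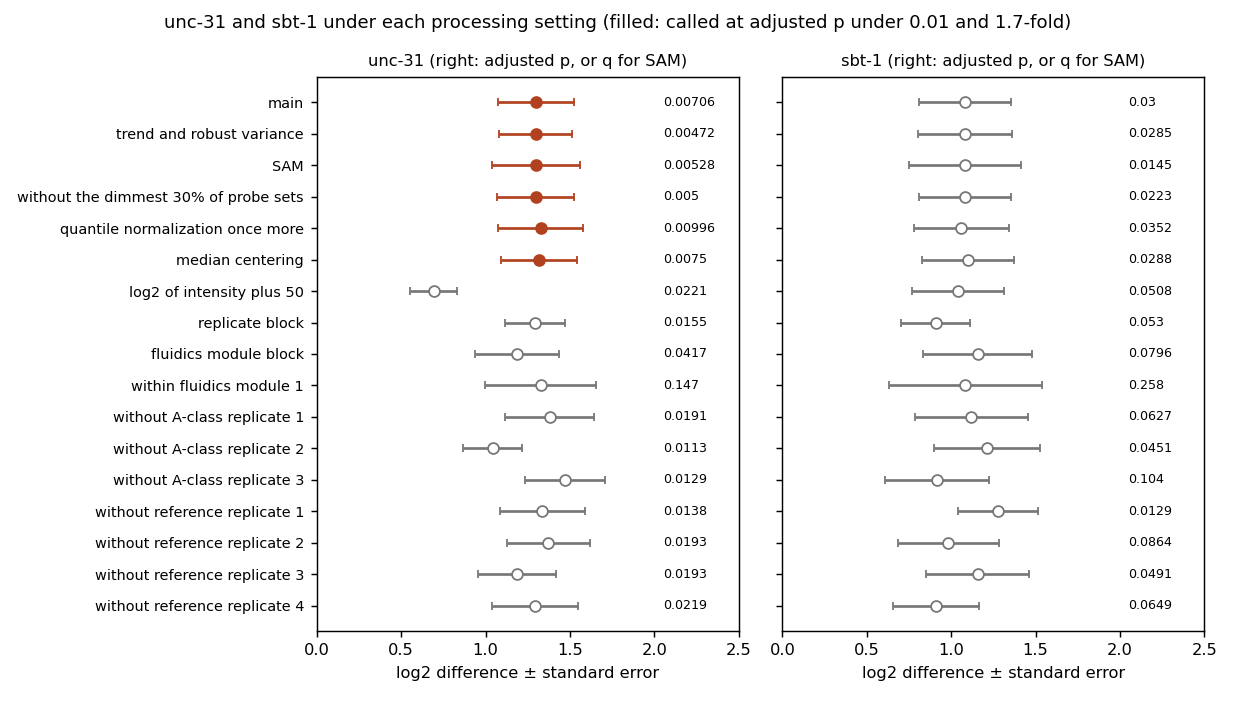
Log2 difference, A-class minus reference, of unc-31 (left) and sbt-1 (right) under each processing setting, with the standard error as a bar and the adjusted p, or the q of SAM, at the right of each panel; filled points passed both limits. The unc-31 difference lies between 0.69 and 1.47 and passed in 6 of the 17 settings drawn, and the sbt-1 difference lies between 0.91 and 1.28 and passed in 0 of them.

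ida-1 encodes a receptor tyrosine phosphatase-like protein of the dense core vesicle membrane, related to mammalian IA-2 and phogrin. On the probe set used for the gene (193087_s_at) its intensities were 182, 145 and 162 on the A-class arrays, against 306, 182, 168 and 267 on the reference arrays (log2 difference -0.46, standard error 0.22, adjusted p = 0.182 from limma). Reference replicates 2 and 3 fell within the range of the A-class arrays, and replicate 2 had the same value as A-class replicate 1. The other probe set (171877_x_at) had 388, 363 and 468 on the A-class arrays, against 506, 375, 200 and 388 on the reference arrays, with a difference of 0.21 (adjusted p = 0.623 from limma). The probe sets thus differ in sign, and neither passed. The sign of the second one rested on reference replicate 3, its lowest array: without it the difference was -0.053.

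hid-1 encodes a conserved protein of the Golgi that is needed for dense core vesicles to form normally. The intensities of its first probe set (175333_s_at) were 409, 203 and 299 on the A-class arrays, against 408, 357, 297 and 389 on the reference arrays (log2 difference -0.30, standard error 0.23, adjusted p = 0.382 from limma). A-class replicate 2 was the lowest array, and the groups overlap. The second probe set (188269_s_at) had 230, 218 and 180 on the A-class arrays, against 267, 273, 249 and 237 on the reference arrays. Here all A-class arrays lay below all reference arrays, and the difference was again -0.30, with a smaller standard error of 0.13 (adjusted p = 0.136 from limma). With A-class replicate 2 left out, the first probe set had a difference of -0.041 and the second of -0.33. Over all probe sets, 31% had groups that do not overlap.

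Among the genes of precursor cleavage, sbt-1 encodes a 7B2-type chaperone that acts with the convertase EGL-3. It had the second-largest difference of the 9 genes. Its intensities were 1814, 1595 and 2404 on the A-class arrays, against 1355, 736, 1055 and 629 on the reference arrays. Every A-class array was above the highest reference array, reference replicate 1. The transcript averaged 1938 ± 418 in A-class cells (SD, n = 3) and 944 ± 328 on the reference arrays (SD, n = 4). From the mean log2 intensities it was 2.12-fold higher in A-class cells (95% interval 1.37 to 3.27, log2 difference 1.08, standard error 0.27). The adjusted p of 0.0300 from limma missed the limit of 0.01. Without any 1 array the difference was 0.91 to 1.28 and the adjusted p 0.0129 to 0.104. At an adjusted p under 0.05 with the same fold limit it would join unc-31, and 685 of all 17118 genes would be called higher. In either direction and without a fold limit, 16.7% of all genes are below that adjusted p.

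egl-3 encodes a convertase of the PC2 type. The main probe set (173431_at) had 1754, 1489 and 1120 on the A-class arrays, against 2388, 1484, 1114 and 1676 on the reference arrays. Both groups span nearly the same range below reference replicate 1, which was the highest array. The log2 difference was -0.17 (95% interval -0.76 to 0.43, adjusted p = 0.682 from limma). On this probe set a change of 1.7-fold lies outside the interval in both directions, narrowly so for a fall in A-class cells. The sign of the difference was not fixed: it was positive when reference replicate 1 (0.026) or A-class replicate 3 (0.011) was left out. The other probe set (192571_s_at) had 206, 112 and 118 on the A-class arrays, against 282, 154, 138 and 176 on the reference arrays. Its difference was -0.37 (95% interval -1.04 to 0.30, adjusted p = 0.399 from limma), and this interval includes a fall of 1.7-fold.

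kpc-1 encodes a furin-type convertase, which in C. elegans is also known for its part in dendrite branching. Its main probe set (173098_at) had 842, 705 and 889 on the A-class arrays, against 654, 719, 399 and 726 on the reference arrays. The groups overlap through A-class replicate 2 (log2 difference 0.41, standard error 0.22, adjusted p = 0.224 from limma). The other 3 probe sets of kpc-1 had differences of -0.19 to -0.48 (adjusted p 0.141 to 0.464), the opposite sign. The probe set 194246_x_at, for example, had 175, 125 and 132 on the A-class arrays, against 202, 207, 145 and 254 on the reference arrays. In the array design, the suffixes _s_at and _x_at mark probe sets whose probes can match more than 1 transcript.

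egl-21 encodes a carboxypeptidase of the E type, which trims the ends the convertases leave. Its only probe set had 2196, 1461 and 1613 on the A-class arrays, against 1981, 1163, 1165 and 1024 on the reference arrays. Apart from reference replicate 1, all reference arrays were below all A-class arrays. The log2 difference was 0.43 (95% interval -0.14 to 0.99, standard error 0.25, adjusted p = 0.252 from limma), and without reference replicate 1 it was 0.63 (adjusted p = 0.0538).

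Neither amidation gene passed the test. pghm-1 encodes the monooxygenase and pgal-1 the lyase, the pair of activities that mammals hold in a single protein. pghm-1 had 838, 783 and 815 on the A-class arrays, against 1147, 572, 630 and 630 on the reference arrays. The A-class arrays were close together, all between reference replicate 1 and the other 3 reference arrays (log2 difference 0.18, 95% interval -0.35 to 0.72, adjusted p = 0.603 from limma). With reference replicate 1 left out the difference was 0.41 (adjusted p = 0.0611), and with reference replicate 2 left out 0.077. pgal-1 had 930, 488 and 716 on the A-class arrays, against 780, 536, 568 and 648 on the reference arrays. A-class replicates 1 and 2 were the highest and the lowest of all 7 arrays, so the reference lay within the spread of A-class (0.13, 95% interval -0.39 to 0.66, adjusted p = 0.703).

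**Figure D3:**
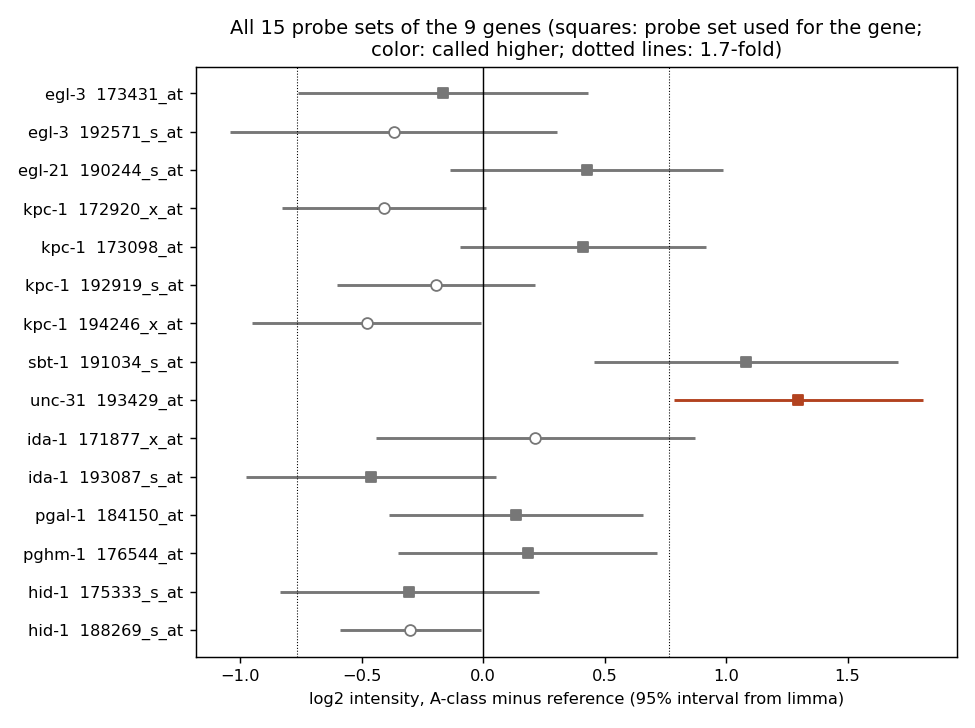
Log2 difference, A-class minus reference, of all 15 probe sets with the 95% interval from limma; squares are the probe sets used for the genes, circles the others, and dotted lines mark 1.7-fold. Only the unc-31 probe set is called, the sbt-1 interval also lies above 0, and the probe sets of kpc-1 and ida-1 lie on both sides of 0.

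Where a gene had several probe sets, the probe sets were compared with each other within each array, a comparison chosen after the values were seen. For kpc-1 the main probe set minus the mean of the other 3 was 2.45 on the log2 scale on the A-class arrays and 1.68 on those of the reference, a difference of 0.77, with no overlap between the groups. For ida-1 the _s_at minus the _x_at probe set was -1.32 on the A-class arrays and -0.64 on those of the reference, a difference of -0.68, also with no overlap. Both gave p = 0.0571 in a two-sided exact permutation test (0.114 after adjustment over the 4 genes). This is the smallest p that 3 against 4 arrays allow, and any groups that do not overlap give it. Over all single probe sets, 31% had groups that do not overlap. The share for such differences between probe sets, over all genes, was not computed. The probe sets of egl-3 (0.20, p = 0.4) and hid-1 (-0.0037, p = 1) had smaller differences by the same exact test.

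The spread between arrays of a group was compared with that of all genes. On the A-class arrays 6 of the 9 genes, and on the reference arrays 9 of 9, had an SD above the median SD of all genes, and pghm-1, ida-1 and kpc-1 lay below it on the A-class arrays. The median SD of log2 intensity was 0.31 for the 9 genes and 0.22 for all genes over the A-class arrays, and 0.42 for the 9 genes and 0.17 for all genes over the reference arrays. Apart from unc-31, the 9 genes lay above the median intensity of every array. Neither this spread nor the size of the differences given earlier was compared with genes of matched intensity. Reference replicate 1 was the highest reference array for 7 of the 9 genes and reference replicate 3 the lowest for 5. Within A-class, replicate 1 was the highest for 6 genes and replicate 2 the lowest for 7. unc-31 did not follow this, with its highest value on A-class replicate 2.

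**Figure D4:**
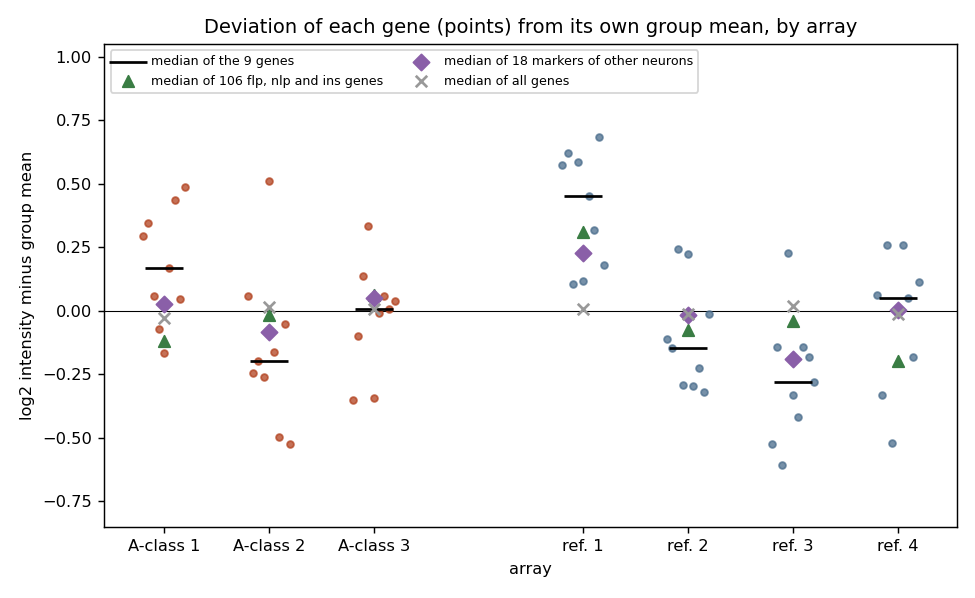
Log2 intensity of each of the 9 genes minus the mean of its own group, on the 3 A-class arrays (left) and the 4 reference arrays (right); points are genes, bars their median, and symbols the medians of 106 peptide genes, 18 markers of other neurons and all genes. The median of the 9 genes is 0.45 on reference replicate 1 and -0.28 on reference replicate 3, while that of all genes stays near 0.

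Set against their own group means, the 9 genes had a median deviation of 0.45 on reference replicate 1 and -0.28 on reference replicate 3. On A-class replicates 1 and 2 it was 0.17 and -0.20. Markers of other neurons (18 genes for GABA, dopamine, serotonin, glutamate, touch and ciliated sensory neurons) deviated by 0.028 and -0.083 on A-class replicates 1 and 2 and by 0.23 and -0.19 on reference replicates 1 and 3. All genes deviated by 0.0087 and 0.020 on reference replicates 1 and 3. Summed over these 18 markers the intensity was 1392 to 1574 on the A-class arrays, against 2127 to 3247 on the reference arrays. None of the 18 was called higher, 1 was called lower (mec-7, a touch neuron tubulin, log2 difference -1.72), 15 were negative and none was at 0. The other probe set of mec-7 (-0.19) was not called. The hypodermal markers (5 genes) deviated by 0.71 on A-class replicate 2, the array with the highest unc-31, and summed to 1584 to 3228 on the A-class arrays, against 3379 to 6296 on the reference arrays, with 0 of 5 called. Of these 5, 3 were negative, sqt-3 (-1.49) and dpy-7 (-1.43) among them, and 2 were positive, dpy-13 (0.53) and rol-6 (0.46), all named after their values were seen. The other probe set of sqt-3 (-1.65), which was not the one used for the gene, was called lower. Body wall muscle markers (6 genes) deviated by 0.23 and -0.22 on A-class replicates 1 and 2 and by 0.011 and -0.31 on reference replicates 1 and 3. They summed to 786 to 1178 on the A-class arrays, against 941 to 1456 on the reference arrays, with 0 of 6 called. Of these 6, 5 were negative and 1 was positive (unc-22, 0.92, named after its value was seen). The part of these markers in the differences of the 9 genes was not tested, and in such bulk RNA fewer cells of a type and less RNA per cell cannot be told apart.

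The median difference of the 9 genes moved with these arrays. With A-class replicate 2 left out it was 0.38, with reference replicate 1 left out 0.41 and with reference replicate 2 left out 0.077. Within fluidics module 1, which holds reference replicate 1 but not replicate 3, it was -0.090, with 4 genes positive and 5 negative. Between the 2 arrays of module 2 it was 0.55, with 8 positive and 0 negative.

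For each of the 9 genes, the gene with the most similar profile was sought, as the smallest root mean square difference of log2 intensity over the 7 arrays after each profile was centered. For sbt-1 this was the FMRFamide-like peptide gene flp-5 (0.138), with 611, 689 and 842 on the A-class arrays, against 493, 307, 456 and 253 on the reference arrays. Its log2 difference was 0.96 (adjusted p = 0.0323 from limma). For unc-31 it was K02E2.8 (0.129), with a difference of 1.21 (adjusted p = 0.00809). The others were ZK355.2 for egl-3 (0.118), trxr-2 for egl-21 (0.120), drp-1 for kpc-1 (0.0418), ugt-56 for ida-1 (0.0892), F36D4.4 for pgal-1 (0.0659), K02F2.5 for pghm-1 (0.110) and mthf-1 for hid-1 (0.0524). Within the set, the closest pair was egl-21 and pghm-1 (0.205), and the profile furthest from every other was that of unc-31 (0.560 to sbt-1).

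The rest of the route was followed through lists of genes. Their counts stand beside 2.21% of all genes called higher and 3.31% called lower. At an unadjusted p under 0.05 from limma these shares were 18.1% and 15.9%. SAM called 530 of all 17118 genes higher and 832 lower. Of 5 further processing enzymes, 1 was lower and 0 were higher (by unadjusted p under 0.05, 1 and 1; by SAM, 1 lower and 0 higher), with a median of 0.058. The lower gene was bli-4, a convertase best known for maturing cuticle collagens. On its main probe set it had 81.8, 95.6 and 56.5 on the A-class arrays, against 178, 167, 152 and 152 on the reference arrays (log2 difference -1.09, adjusted p = 0.00643 from limma). Of its 9 probe sets 5 were called lower (3.46% of all probe sets were), and the range of all was -1.58 to 0.18. The call on the main probe set was kept when A-class replicate 2 was left out but ended when any other array was (highest adjusted p 0.0262 from limma). It also ended with a module block (adjusted p = 0.0373 from limma), a replicate block (0.0226) and a further quantile normalization (0.0119). With log2 of the value plus 50 the difference was -0.74, short of the fold limit. With the probe set of highest mean for each gene, 0 genes of this list were lower. Of the hypodermal markers given above, 3 of 5 were negative and their part in this difference was not tested. The carboxypeptidase gene cpd-2, named after its values were seen, had 194, 165 and 176 on the A-class arrays, against 112, 121, 113 and 122 on the reference arrays. It missed the fold limit (0.60, adjusted p = 0.00929). The list also held a further amidation gene, pamn-1, likewise named after its values were seen. Its 2 probe sets (-0.40 and -0.095) were not called.

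Of 13 genes for the biogenesis and sorting of dense core vesicles, 1 was higher and 0 were lower (by unadjusted p under 0.05, 2 and 3), with a median of 0.16. The higher gene was ric-19, the homolog of mammalian ICA69, which acts with RAB-2 in the maturation of these vesicles. It had 889, 831 and 774 on the A-class arrays, against 350, 297, 275 and 296 on the reference arrays. The groups were far apart for their spread (log2 difference 1.45, standard error 0.12, adjusted p = 0.00053 from limma), and the call was kept without each array in turn (adjusted p up to 0.00394). SAM also called rab-10 lower (-0.92, adjusted p = 0.0158 from limma).

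Of 23 genes for the transport and release of the vesicles, 3 were higher and 0 were lower (by unadjusted p under 0.05, 12 and 3, beside 18.1% and 15.9% of all genes; by SAM, 3 and 0), with a median of 0.48. Synaptic vesicles use many of these proteins as well. The higher genes were aex-3, a Rab exchange factor (1.93), ric-4, the SNAP-25 of the worm (1.75), and unc-18, a partner of syntaxin (1.73). Both probe sets of ric-4 were called (1.42 and 1.75). The second probe sets of aex-3 (0.38) and unc-18 (0.28) were positive but were not called. Leaving out A-class replicate 1 or 3 or reference replicate 2 ended the call of ric-4 (highest adjusted p 0.0133 from limma), and leaving out any A-class replicate or reference replicate 2 or 4 ended that of unc-18 (highest 0.0211). With a module block the count of higher genes was 1, as the calls of aex-3 (1.84, adjusted p = 0.0142 from limma) and ric-4 (1.63, adjusted p = 0.0205) ended. If any probe set of a gene could call it, 6 genes were higher. Among them was klc-2, a kinesin light chain gene whose probe sets differ in sign (1.96 and -0.33). The 3 probe sets of kin-2 also differ in sign (-0.063 to 0.97). klc-2 and the other added genes, rab-3 and kin-2, are named after their values were seen.

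Of the peptide precursors themselves, 106 flp, nlp and ins genes were measured. Of these 9 were higher, 4 lower and 93 did not pass, with a median of 0.0010, beside 2.21% of all genes called higher and 3.31% lower. By family, 3 of 25 flp genes were higher and 3 lower, 5 of 58 nlp genes were higher and 1 lower, and 1 of 23 ins genes was higher. The largest positive difference was that of nlp-9, with 1666, 2703 and 2318 on the A-class arrays, against 305, 185, 159 and 163 on the reference arrays (3.48, adjusted p = 0.000375 from limma). flp-13 (3.16) and flp-32 (2.98) followed. The lower genes included flp-10 (-1.88), nlp-8 (-1.86) and flp-3 (-1.51). The nlp-8 call was kept when reference replicate 1 was left out and ended for each other array (highest adjusted p 0.0261 from limma). The flp-3 call ended when A-class replicate 3 or reference replicate 2 or 3 was left out (highest 0.0169). The neprilysins, peptidases that can break down released peptides, had 0 higher and 0 lower among 25 by limma and by SAM (8 and 2 at an unadjusted p under 0.05, beside 18.1% and 15.9% of all genes), with a median of 0.18.

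**Figure D5:**
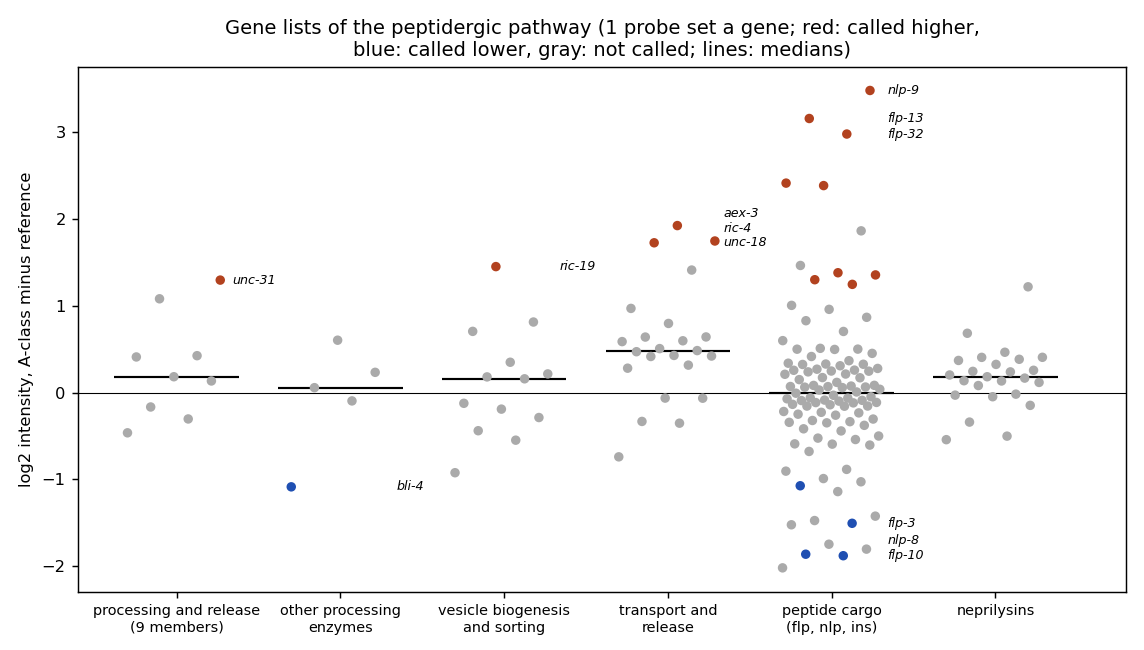
Log2 difference, A-class minus reference, of the genes of each list, with 1 probe set a gene; red points are called higher, blue lower and gray not called, lines are medians, and names mark called genes (for the peptide cargo, the 3 with the largest difference in each direction). The median is 0.18 for the 9 genes, 0.48 for transport and release and 0.0010 for the peptide cargo.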

How the data were processed

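Gene expression was measured on 7 Affymetrix C. elegans arrays, 3 of A-class cells and 4 of reference cells, grouped by the sample labels. The authors deposited linear intensities, 1 for each probe set of an array, which the submitters' processing notes name as RMA values. The RMA version was not given in the sources used here, nor was the set of arrays it was run on. No detection calls or probe-level values were used, and the number of arrays limits the precision. Arrays of larval or pan-neural RNA were not analysed here.

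From these intensities log2 was taken, with no pseudocount and no filter, and the groups were compared with limma 3.58.1 in R 4.3.3 (lmFit, eBayes) on all 7 arrays, without covariates. p-values were adjusted by Benjamini-Hochberg over 22548 probe sets. Of these, 20766 had 1 gene symbol in the platform annotation, 887 several and 895 none, and only the first kind names a gene. A gene was represented by 1 probe set, with suffix _at before _s_at before others and then the highest mean intensity. The steps were tested on simulated data. The 9 genes and the lists were chosen with earlier results of these data known. The rule for named genes took all 9 genes with every probe set, the called genes of each list (at most 4 in each direction, 3 for the peptide precursors), the most similar profile, unc-4 and the called cell type markers; other names are said to be chosen after the values were seen. The alternatives were limma with a trend and robust variance, SAM over all label permutations, limits of 1.5-fold or of 0.05 for the adjusted p, log2 of the intensity plus 50, centering on medians, a further quantile normalization, dropping the dimmest 30% of the probe sets, a block for the replicate or the fluidics module, each module alone, other choices of the probe set of a gene, and each array left out. Python 3.11.15 with pandas 2.3.3 built the tables, and matplotlib 3.10.9 drew the figures.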

Additional observations from a re-analysis of the deposited data

Results flagged for a closer look

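Of 26 probe sets examined on linear intensities, 2 had a reference array far from the other 3 for the spread of the group. For egl-21, the carboxypeptidase gene, reference replicate 1 had an intensity of 1981, and its gap to the nearest array was 0.852 of the whole range. For pghm-1, the amidation monooxygenase gene, reference replicate 1 had 1147 and the gap was 0.899 of the range. Both exceed Dixon's 95% critical value for 4 samples, which chance passes in about 1 of 20 groups. On the log2 scale, where this was not run, the gap is a smaller share of the range for both genes. The egl-21 flag rests on the linear scale: its log2 deviations from the reference mean were 0.62, -0.15, -0.14 and -0.33 on reference replicates 1, 2, 3 and 4. The flagged array was the same in both, the one on which 7 of the 9 genes were highest among the reference arrays. The 3 A-class arrays were too few to be examined in this way.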

How the results depend on the processing

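The number of the 9 genes called higher was 1, and it was 0 with log2 of the value plus 50, with the replicate block, with the fluidics module block, within module 1 and without any 1 array (0 to 0), and 2 at an adjusted p under 0.05, where sbt-1 joined. The number called lower was 0 in every setting run. The unc-31 call was kept with trend and robust variance, SAM, the dimmest 30% left out, quantile normalization (adjusted p = 0.00996 from limma) and median centering. The sign turned for egl-3 173431_at (0.24 between the 2 arrays of module 2, -0.34 to 0.026 with 1 array left out), for egl-3 192571_s_at (0.42) and hid-1 175333_s_at (0.20) on module 2, for ida-1 171877_x_at (-0.053 with the module block, -0.10 within module 1, -0.053 to 0.39 with 1 array left out), for pgal-1 (-0.27 within module 1, -0.083 to 0.38 with 1 array left out) and for pghm-1 (-0.090 within module 1), none of which was called in any setting, and the cause was not tested. In all, 273 of 285 alternative values of the 15 probe sets had the sign of the reported value, 11 had the opposite sign and 1 was 0 (ida-1 193087_s_at on module 2). The count of equal signs is in part fixed in advance. Trend and robust variance, SAM, the dimmest 30% left out and the other limits do not change the difference. The replicate block gave the same differences as leaving out reference replicate 4, and the module block the same as leaving out reference replicate 3.

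The replicate numbers did not pair the arrays (correlations of deviations 0.034, -0.12 and -0.053), and with the replicate block unc-31 had a difference of 1.29 (adjusted p = 0.0155 from limma). Over all genes, 378 were called higher and 566 lower; the counts were 187 and 252 with log2 of the value plus 50, 69 and 78 with the replicate block, 73 and 81 with the module block, 0 and 0 within module 1, 685 and 1121 at an adjusted p under 0.05, and 135 to 356 and 173 to 543 without 1 array. Within module 1 no gene was called, so that setting says nothing on single genes. Of the peptide precursors, 4 were higher and 0 lower with the replicate block, and 4 and 1 with the module block. Of the transport and release genes, 1 was higher with either block. Signal over background was not analysed here.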

Other observations

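Exactly equal intensities occurred between arrays, for 1.54% to 6.12% of probe sets in each pair of arrays. The ida-1 probe set 193087_s_at was 182 on both A-class replicate 1 and reference replicate 2, and 171877_x_at was 388 on both A-class replicate 1 and reference replicate 4.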
